A study of Hordeum vulgare with 6 samples.

Results

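Retrotransposons are genetic elements that copy themselves through an RNA intermediate, which a reverse transcriptase turns back into DNA for insertion at a new place, and they make up most of the barley genome. The long terminal repeat (LTR) kinds, Ty1-copia and Ty3-gypsy, encode a gag protein that packages the RNA and a Pol polyprotein with protease, reverse transcriptase and integrase, and the LINE kind, which has no LTR, encodes an endonuclease and a reverse transcriptase. In plants most copies are fragments and are kept silent by DNA methylation, histone H3 lysine-9 methylation and small RNAs. In the gene annotation of the barley reference Morex V3, 3616 of 40411 genes (8.95%) were described as such a protein, taken as every gene whose description contained one of the words retrotransposon, reverse transcriptase, Pol polyprotein, LINE-1, Ty3, Ty1, copia or gypsy, other than telomerase. Of these, 1963 had a mean of at least 0.1 TPM, a read level per unit of transcript length scaled to a fixed library total, over 6 libraries and are described here, 1958 of them away from a single stretch of chromosome 6H and 5 inside it. The other 1653 genes lay under that minimum, the nearest at a mean of 0.0983 TPM, and 10 genes lay on the minimum itself.

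The libraries were RNA-seq of immature spikes (young panicles) of 0.5 to 1 cm, between the glume primordium and the lemma primordium stages. There were 3 biological replicates of *msnsd*, a recessive dwarf mutant with many stem nodes and spikes, and 3 of E934, the feed barley variety whose treatment with ethyl methane sulfonate and radioactive cobalt yielded it. A line selected after such a treatment can carry induced changes other than the one mapped to 5H. *HvTCP25* (HORVU.MOREX.r3.5HG0497460), the TCP transcription factor gene named as the candidate for the mutation, had 8.59, 7.28 and 7.32 TPM in *msnsd*, against 8.27, 4.71 and 5.13 TPM in E934 (limma log2 fold change 0.39, adjusted p = 0.564). The annotation describes this gene only as a putative transcription factor. The genotypes overlapped, and the direction is opposite to that in the paper, which reported a slightly lower level in *msnsd*, also not significant. Since all libraries are brought to one total in TPM, the depth of a library is unknown. Between 33227 and 35537 genes were above 0 in a library. Genes of inflorescence identity were well expressed, with 52 genes described as MADS-box factors summing to 1146 to 1167 TPM in *msnsd* and to 1236 to 1389 TPM in E934. Leaf genes (chlorophyll a-b binding proteins and the small chain of Rubisco, 35 genes) summed to 499 to 766 TPM in *msnsd* and to 473 to 659 TPM in E934, and 59 genes of dividing cells (cyclin B and histone H4) to 29258 to 32532 TPM in *msnsd* and to 29613 to 33926 TPM in E934. In each of these lists 0 genes were at 0 in every library.

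By their descriptions, 1530 of the 3616 genes were Ty1-copia, 621 were Ty3-gypsy and 359 were named as LINE or non-LTR. A further 235 were called reverse transcriptases and 869 retrotransposon proteins or polyproteins with none of these types given. The 869 include HORVU.MOREX.r3.7HG0726240, described as of the SINE subclass, for which no class was set apart. The remaining 2 matched only by the letters ty1 inside the name of an ethylene signalling protein, REVERSION-TO-ETHYLENE SENSITIVITY1, and are no retrotransposon genes. The annotation placed 200 of the 3616 genes in its high-confidence class. Of these 86 were LINE genes, against 3 of the Ty1-copia genes and 0 of the Ty3-gypsy genes. A reverse transcriptase domain was listed for 1067 of the genes, the zinc-binding domain found in plant reverse transcriptases for 307, an integrase core for 379, a retrotransposon gag domain for 149 and a retroviral-type protease for 52. For 1317 of the genes no domain was listed. Of the 36795 genes that had another description, the reverse transcriptase domain was listed for 7, the zinc-binding domain for 17 and the gag domain for 22. The integrase core and the protease were listed for 0 of them.

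The genes were spread over all chromosomes, from 8.29% of the annotated genes of 5H to 10.3% of those of 6H. They lay nearer to the chromosome centres than other genes did: 41.5% of them fell in the middle 50% of their chromosome's annotated length, against 27.9% of all other genes. The share was 41.2% for the 1957 placed genes that reached 0.1 TPM. The 1958 genes were weakly expressed, with a median mean of 0.365 TPM against 5.11 TPM over all 32996 genes tested, and 475 of them reached 1 TPM and 53 reached 10 TPM. Their median length was 573 bp, against 1700 bp over all genes tested. The authors' mean normalized count, 1 value per gene over all libraries, had a median of 5.18 for these genes and of 124 over all genes tested, and it was under 10 for 1259 of them (64.3%), so that single values in TPM often rest on few reads. Copies of a retrotransposon can be nearly identical, and how reads that fit several copies were divided is not given in the sources used here, so the level of any 1 copy is uncertain.

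A few copies carried much of the signal. The 6 most abundant genes held 13.2% of the summed TPM of the 1958 genes, and the 100 most abundant held 52.3%. The highest was HORVU.MOREX.r3.1HG0026180, a short Pol polyprotein gene (1H, 112001068 to 112001340), with 141.73, 171.80 and 145.45 TPM in *msnsd*, against 188.92, 142.47 and 164.95 TPM in E934. The next was HORVU.MOREX.r3.1HG0093980, described as the Pol polyprotein of the copia element TNT 1-94, with 41.94, 87.84 and 59.01 TPM in *msnsd*, against 36.49, 39.74 and 54.41 TPM in E934. For both, the libraries of the genotypes overlapped, with log2 fold changes of -0.11 (adjusted p = 0.780) and 0.49 (adjusted p = 0.551). HORVU.MOREX.r3.4HG0331650, a Gag-Pol-related gene, had 50.85, 48.88 and 39.24 TPM in *msnsd*, against 47.75, 46.89 and 42.72 TPM in E934. HORVU.MOREX.r3.7HG0726240, of the SINE subclass, short elements that borrow the LINE machinery, had 30.24, 46.42 and 31.76 TPM in *msnsd*, against 36.25, 28.28 and 48.95 TPM in E934. These also overlapped, and the fold changes were close to 0 (0.01 and -0.06 on the log2 scale). HORVU.MOREX.r3.4HG0403020, described as a Gag-Pol polyprotein but listed with a Swi3 domain and a zinc knuckle, had 37.44, 38.39 and 36.05 TPM in *msnsd*, against 43.52, 31.44 and 29.75 TPM in E934 (log2 fold change 0.12, adjusted p = 0.805). HORVU.MOREX.r3.3HG0300200, a Ty1-OR Gag-Pol gene, had 35.35, 32.76 and 37.56 TPM in *msnsd*, against 31.25, 36.83 and 33.66 TPM in E934 (0.06, adjusted p = 0.864). In these 6 genes the difference between genotypes lay within the spread between replicates, with standard errors of 0.10 to 0.27 on the log2 scale.

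Summed over the 1958 genes, retrotransposon transcripts made up 2967, 2484 and 2283 TPM in *msnsd*, against 3057, 3411 and 2462 TPM in E934. The genotypes overlapped, with means of 2578 ± 351 TPM in *msnsd* and 2977 ± 480 TPM in E934 (SD, n = 3 each), a ratio of 0.866. These sums were 0.228% to 0.297% of all TPM in *msnsd* and 0.246% to 0.341% in E934. They include the 2 genes matched by letters, with means of 37.1 TPM in *msnsd* and 36.4 TPM in E934. Every class overlapped in the same way. Ty1-copia genes summed to 829 ± 121 TPM in *msnsd* and 985 ± 171 TPM in E934, Ty3-gypsy genes to 427 ± 79.2 TPM in *msnsd* and 465 ± 99.4 TPM in E934, and LINE genes to 217 ± 41.4 TPM in *msnsd* and 259 ± 63.0 TPM in E934 (SD, n = 3 each).

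The level of retrotransposon genes differed more between libraries of 1 genotype than between the genotypes. For each gene the mean of its log2 values over the 6 libraries was taken off, and the median of what was left was 0.15, -0.22 and -0.26 in replicates 1, 2 and 3 of *msnsd*, against 0.21, 0.36 and -0.25 in those of E934. Replicate 1 of *msnsd* and replicates 1 and 2 of E934 were thus high, and the other 3 libraries low. The number of retrotransposon genes above 0 was 2404, 2152 and 2273 in *msnsd*, against 2551, 2674 and 2097 in E934, and the genes of all kinds above 0 numbered 34525, 33505 and 34353 in *msnsd*, against 34534, 35537 and 33227 in E934. Genes of DNA transposons, which move by a transposase without an RNA step, had medians of 0.10, -0.12 and -0.22 in *msnsd*, against 0.12, 0.33 and -0.20 in E934. Other genes of the low-confidence class had medians of 0.08, -0.08 and -0.13 in *msnsd*, against 0.07, 0.23 and -0.08 in E934, and all other genes of 0.04, -0.01 and -0.03 in *msnsd*, against -0.01, 0.09 and -0.05 in E934. The level of low-confidence genes moved broadly with the retrotransposon genes across libraries. The number of genes detected did so only in part. Replicate 3 of *msnsd* had the lowest retrotransposon median, but 34353 genes above 0 against 33505 in replicate 2 of *msnsd*. The part of either in the retrotransposon level was not tested.

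**Figure D1:**
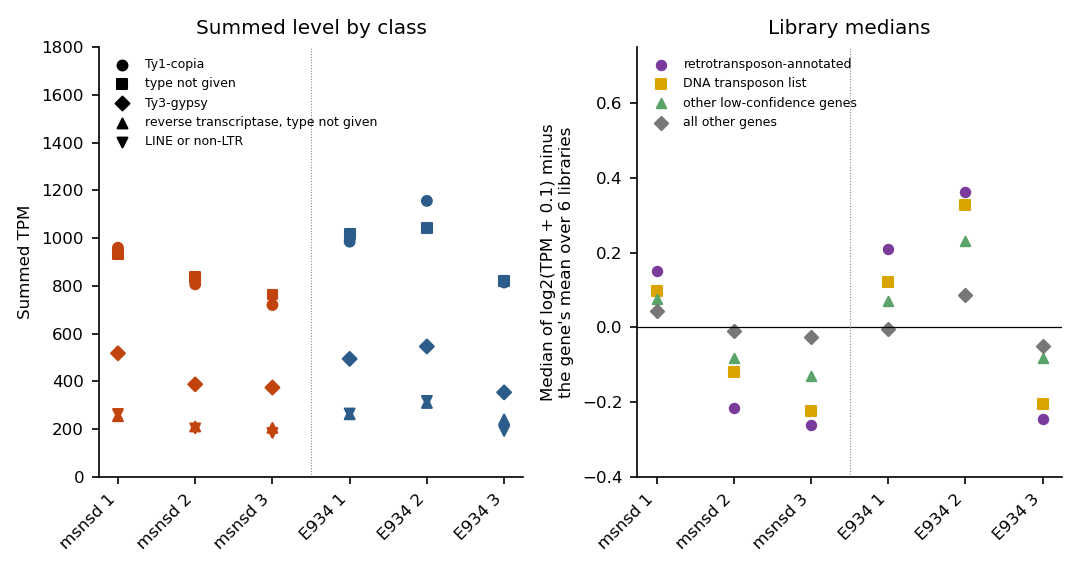
Left, summed TPM of retrotransposon-annotated genes outside the 6H stretch by class in the 3 *msnsd* (orange) and 3 E934 (blue) libraries, 1 point per class and library. Right, the median over genes of log2(TPM + 0.1) minus the gene's own mean over the 6 libraries, for 4 groups of genes; the retrotransposon medians run from -0.26 to 0.15 in *msnsd* and from -0.25 to 0.36 in E934, and the DNA transposon medians lie beside them in each library.

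Gene by gene, *msnsd* and E934 were compared with limma on log2(TPM + 0.1), with p-values adjusted by the Benjamini-Hochberg method over all 32996 genes. A gene was called where its log2 fold change was 1.5 or more in size and its adjusted p no more than 0.05. Fold changes are *msnsd* over E934 on this scale, which understates the change of low genes. Over all genes 16 were called (0.0485%), 7 higher in *msnsd* (0.0212%) and 9 lower (0.0273%). At the same thresholds the paper reported a larger set of transcripts with DESeq2, most of them higher in *msnsd*. The counts given here hold for this limma fit only. Of the 1958 retrotransposon genes outside the stretch, 0 were called, and the smallest adjusted p was 0.0535. No tool other than limma was run. In limma without its trend of variance on level 5 of them were called, and after quantile normalization 1 was, all with authors' mean normalized counts of 1.20 to 1.96. At an unadjusted p under 0.05, 30 (1.53%) were higher in *msnsd* and 103 (5.26%) lower, against 5.57% higher and 5.09% lower over all genes tested. With a log2 change of at least 1.5 as well, 18 (0.919%) were higher and 52 (2.66%) lower, against 0.806% higher and 0.918% lower over all genes. Among other genes under 1 TPM these shares were 1.73% higher and 1.93% lower. Among those of them in the low-confidence class they were 1.73% higher and 2.73% lower. The *msnsd* libraries lay wholly above those of E934 for 43 genes (2.20%) and wholly below for 148 (7.56%), against 8.73% above and 7.85% below over all genes. By p alone and by overlap, the counts of lower genes were thus near the share over all genes and those of higher genes below it, while with the fold threshold the lower genes were above it. The median level over all genes tested is higher, however. By p alone, the lower shares were 3.22% at 0.1 to 0.3 TPM (2.06% of other genes) and 6.37% up to 1 TPM (3.92%). They were 6.87% up to 10 TPM (5.62%) and 11.3% above that (5.98%). By overlap they were 6.20% at 0.1 to 0.3 TPM (4.32%) and 9.43% above 10 TPM (9.26%). Of other low-confidence genes of any level, 7.63% were lower by p alone. Without replicate 3 of E934, the count of retrotransposon genes lower at an unadjusted p under 0.05 was 176.

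The median log2 fold change of the 1958 genes was -0.20, with quartiles of -0.59 and 0.19, and 1264 of them (64.6%) were below 0. Over all genes tested the median was -0.02 and 52.4% were below 0. The median varied little with level: it was -0.19 for the 839 genes of 0.1 to 0.3 TPM, -0.18 for the 644 genes up to 1 TPM, -0.24 for the 422 genes up to 10 TPM and -0.17 for the 53 genes above that. It was also alike in both annotation classes, -0.19 for the 110 high-confidence genes and -0.20 for the 1848 low-confidence genes. On single chromosomes it ran from -0.26 to -0.15, the 1 gene on no chromosome left out. Other groups had medians below 0 as well. The 10768 other genes of low confidence had a median of -0.12, with 367 (3.41%) higher and 822 (7.63%) lower at an unadjusted p under 0.05. The 687 DNA transposon genes had one of -0.21, with 13 (1.89%) higher and 47 (6.84%) lower. Over all genes tested these shares were 5.57% higher and 5.09% lower. Other genes under 1 TPM of any confidence class had a median of -0.0047. With libraries left out in turn, the median of the retrotransposon genes was -0.36 without replicate 3 of E934, -0.33 without replicate 1 of *msnsd* and -0.10 without replicate 2 of E934, so that its size depended on which libraries were included.

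**Figure D2:**
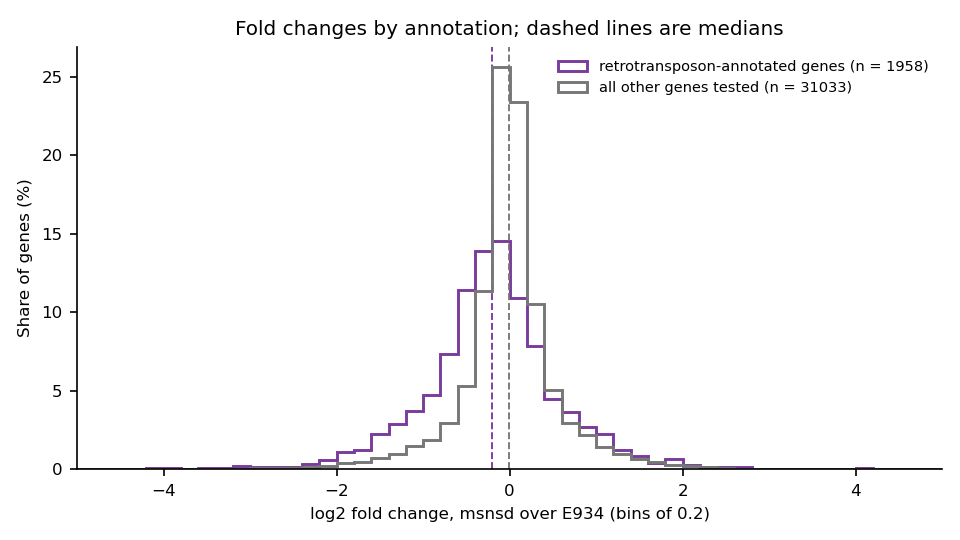
Share of genes (%) by log2 fold change, *msnsd* over E934, in bins of 0.2, for 1958 retrotransposon-annotated genes outside the 6H stretch and for all other genes tested; dashed lines are the medians. The retrotransposon genes form the broader curve, with a median of -0.20, and the other genes peak at 0, with a median of -0.01.

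Of the LTR classes, the 772 Ty1-copia genes had a median log2 fold change of -0.25. At an unadjusted p under 0.05, 6 of them (0.777%) were higher and 42 (5.44%) lower, against 5.57% and 5.09% over all genes tested. The 326 Ty3-gypsy genes had a median of -0.15, with 7 (2.15%) higher and 10 (3.07%) lower. The 216 LINE genes had a median of -0.18, with 6 higher and 8 lower, and the 160 reverse transcriptase genes with no type given one of -0.22, with 4 higher and 14 lower. Sorted by protein domain instead, the median was -0.21 for 504 genes with a reverse transcriptase, -0.15 for 152 with an integrase core, -0.15 for 75 with a gag domain and -0.07 for 27 with a protease. In every class and domain group 0 genes were called, against 0.0485% of all genes tested.

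The 53 genes of at least 10 TPM carry the best measured values. They include the 2 ethylene signalling genes matched by letters, neither of which had an unadjusted p under 0.05. Of the 53 genes, 4 (7.55%) were higher and 6 (11.3%) lower at an unadjusted p under 0.05. Among other genes of at least 10 TPM the shares were 6.94% higher and 5.98% lower. The 4 genes named next were chosen after their values were seen. HORVU.MOREX.r3.5HG0443030, a TNT 1-94 Pol polyprotein gene of 3084 bp (5H, 100807394 to 100810477), had 14.07, 15.26 and 16.01 TPM in *msnsd*, against 27.41, 27.11 and 25.42 TPM in E934. Its libraries did not overlap and lay close together within each genotype, at 15.1 ± 0.978 TPM in *msnsd* and 26.6 ± 1.07 TPM in E934 (SD, n = 3 each), a log2 fold change of -0.82 (SE 0.09, limma adjusted p = 0.0535). HORVU.MOREX.r3.5HG0468860, a reverse transcriptase-related gene, had 24.41, 25.29 and 25.55 TPM in *msnsd*, against 33.74, 31.13 and 35.48 TPM in E934 (log2 fold change -0.41, SE 0.08, adjusted p = 0.154). In the other direction, HORVU.MOREX.r3.7HG0740270, a Ty3-gypsy gene with an integrase core (7H, 604832964 to 604836111), had 19.59, 17.79 and 18.20 TPM in *msnsd*, against 10.19, 11.51 and 12.70 TPM in E934. These groups did not overlap either, at a log2 fold change of 0.69 (SE 0.11, adjusted p = 0.102). HORVU.MOREX.r3.6HG0589130, another TNT 1-94 gene, varied more, with 13.99, 9.43 and 5.66 TPM in *msnsd*, against 14.57, 19.26 and 15.16 TPM in E934 (log2 fold change -0.83, adjusted p = 0.414). None of these 4 passed the threshold.

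Among the genes whose genotypes did not overlap, the largest differences lay in genes listed at 0 in a whole genotype. Of the 1958 genes, 16 (0.817%) were at 0 in every *msnsd* library and above 0 in every E934 library, and 6 (0.306%) showed the reverse, against 68 (0.206%) and 47 (0.142%) of all genes tested. A TPM of 0 has no known floor, so no fold is given for them. The 5 genes with the most negative fitted values were all of this kind. HORVU.MOREX.r3.4HG0366110, a reverse transcriptase-related gene of 198 bp, was at 0 in all *msnsd* libraries, against 0.57, 2.14 and 3.24 TPM in E934 (adjusted p = 0.0971). HORVU.MOREX.r3.6HG0575430, a LINE-1 reverse transcriptase-like gene, was at 0 in *msnsd*, against 1.53, 2.23 and 0.70 TPM in E934 (adjusted p = 0.0720). HORVU.MOREX.r3.5HG0448910, of high confidence and with the zinc-binding domain, was at 0 in *msnsd*, against 2.63, 1.03 and 0.43 TPM in E934 (adjusted p = 0.130). E934 was thus above 0 throughout, but its replicates differed several-fold from each other. HORVU.MOREX.r3.5HG0491990, a Ty1-NL2 gag gene, had the most even values, with 0 in *msnsd*, against 0.68, 1.02 and 1.05 TPM in E934 (adjusted p = 0.0636). HORVU.MOREX.r3.4HG0366830, the last of the 5, belongs to a run on 4H and is given with it. The first 4 had authors' mean normalized counts of 1.68 to 2.31, so that they rest on very few reads. HORVU.MOREX.r3.3HG0300450, a reverse transcriptase gene chosen after its values were seen, was low but above 0 in *msnsd*, with 0.18, 0.18 and 0.07 TPM, against 1.60, 1.72 and 1.37 TPM in E934 (log2 fold change -2.80, SE 0.37, adjusted p = 0.0720, mean normalized count 10.54).

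The 5 genes with the most positive fitted values and no overlap were as weakly expressed. HORVU.MOREX.r3.5HG0530430, an unclassified retrotransposon gene of 264 bp, had 1.91, 0.91 and 1.94 TPM in *msnsd*, against 0 in every E934 library (adjusted p = 0.0535, mean normalized count 1.84). HORVU.MOREX.r3.2HG0194870, of the LINE subclass, had 0.42, 0.61 and 0.35 TPM in *msnsd*, against 0 in every E934 library (adjusted p = 0.141), and HORVU.MOREX.r3.4HG0364390, a Ty3-I Gag-Pol gene, had 0.64, 0.31 and 0.26 TPM in *msnsd*, against 0 in every E934 library (adjusted p = 0.195). All 3 were thus detected in *msnsd* alone. HORVU.MOREX.r3.5HG0477820 had 1.08, 0.15 and 0.63 TPM in *msnsd*, against 0.14, 0 and 0 TPM in E934 (log2 fold change 2.16, adjusted p = 0.367). HORVU.MOREX.r3.1HG0007530, a reverse transcriptase gene, had 0.59, 0.57 and 1.78 TPM in *msnsd*, against 0.18, 0.32 and 0 TPM in E934 (log2 fold change 2.07, adjusted p = 0.364). For HORVU.MOREX.r3.5HG0477820 the lowest *msnsd* and highest E934 libraries nearly met, at 0.15 and 0.14 TPM.

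**Figure D3:**
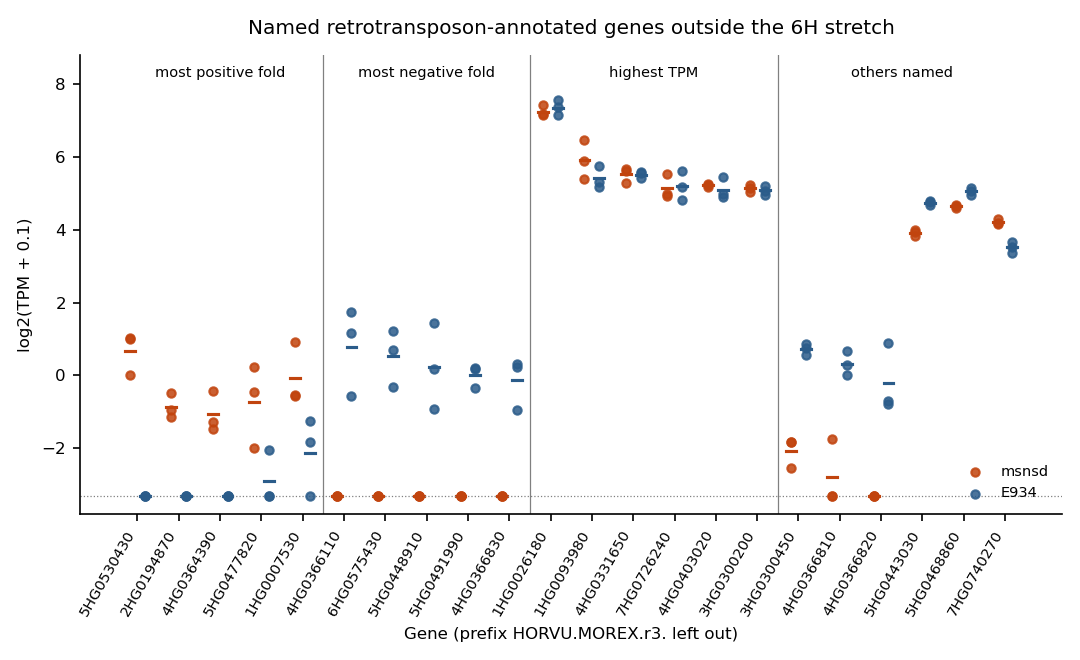
log2(TPM + 0.1) of the named retrotransposon-annotated genes outside the 6H stretch, 1 point per library and a bar at each genotype's mean (n = 3), *msnsd* in orange left of E934 in blue; the dotted line is a TPM of 0. The genes with the most positive and most negative fold changes sit at or near that line in 1 genotype and at a few TPM at most in the other, and the 6 most abundant genes overlap between genotypes.

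The stretch reported apart runs over 10147 bp of chromosome 6H (467400583 to 467410729) and holds 11 annotated genes, 5 of them described as retrotransposon proteins. It was picked because its genes are low in *msnsd* in these libraries, so its values are a description and the p-values beside them are no independent evidence. Summed over the 11 genes, the stretch had 12.93, 14.11 and 13.05 TPM in *msnsd*, against 75.48, 101.1 and 76.40 TPM in E934, or 13.4 ± 0.649 TPM in *msnsd* and 84.3 ± 14.5 TPM in E934 (SD, n = 3 each). Its 5 retrotransposon genes summed to 3.45 ± 0.386 TPM in *msnsd* and 25.2 ± 6.79 TPM in E934, a ratio of 0.137. Of the 11 genes, 10 were lower in *msnsd* without overlap between genotypes, where an exact permutation test of 3 against 3 libraries reaches no p below 0.1, and 2 of the 11 were called.

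The 5 retrotransposon genes of the stretch lie in its middle and towards its end, the last 3 of them directly next to each other, and a domain is listed for 4 of the 5. HORVU.MOREX.r3.6HG0608230 (467403653 to 467405062), a LINE-1 Pol polyprotein gene of high confidence with a reverse transcriptase domain, had 0.79, 0.42 and 0.29 TPM in *msnsd*, against 1.75, 2.31 and 2.10 TPM in E934 (log2 fold change -1.92, SE 0.38, adjusted p = 0.146). HORVU.MOREX.r3.6HG0608250 (467405829 to 467406686), unclassified and listed with a domain of unknown function that is common in plant LINE proteins, had 0.56, 0.70 and 0.31 TPM in *msnsd*, against 3.83, 5.24 and 3.52 TPM in E934 (-2.82, SE 0.33, adjusted p = 0.0600). In both, all E934 libraries exceeded all *msnsd* libraries. HORVU.MOREX.r3.6HG0608270 (467407454 to 467407903), with an endonuclease domain, had 0.49, 0 and 0.40 TPM in *msnsd*, against 2.72, 4.13 and 3.91 TPM in E934 (-3.55, SE 0.68, adjusted p = 0.142). HORVU.MOREX.r3.6HG0608280 (467408255 to 467409010), with a reverse transcriptase domain, had 1.51, 0.75 and 1.21 TPM in *msnsd*, against 3.02, 7.76 and 4.87 TPM in E934 (-2.03, SE 0.40, adjusted p = 0.147). HORVU.MOREX.r3.6HG0608290 (467409259 to 467410062), described as a LINE-1 reverse transcriptase and listed with no domain, had 0.54, 1.30 and 1.08 TPM in *msnsd*, against 8.43, 13.39 and 8.74 TPM in E934, and was the only one of the 5 that was called (-3.30, SE 0.34, adjusted p = 0.0475). Its adjusted p ran from 0.0313 to 0.206 over 14 other settings, and 11 of them took it off the list.

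The other genes of the stretch bear unrelated descriptions, and 5 of these 6 were low in *msnsd* as well. The last gene, HORVU.MOREX.r3.6HG0608300 (467410235 to 467410729), described as a zinc finger FYVE domain protein, had 4.07, 7.49 and 4.90 TPM in *msnsd*, against 35.60, 50.08 and 39.03 TPM in E934 (-2.93, SE 0.24, adjusted p = 0.0166). It alone made up 41.1% of the TPM of the stretch in *msnsd* and 49.3% in E934. The adjusted p of this gene ran from 0.0163 to 0.129 over the other settings, 7 of which took it off the list. HORVU.MOREX.r3.6HG0608220, described as a craniofacial development protein but listed with the endonuclease fold that LINE proteins also carry, had 0.34, 0.19 and 0.86 TPM in *msnsd*, against 1.74, 1.94 and 2.09 TPM in E934 (-2.02, SE 0.47, adjusted p = 0.204). HORVU.MOREX.r3.6HG0608200, HORVU.MOREX.r3.6HG0608210 and HORVU.MOREX.r3.6HG0608260 had log2 fold changes of -2.80, -2.19 and -2.62. The exception was HORVU.MOREX.r3.6HG0608240, described as a ribosomal protein L11 of the 50S subunit, which starts 6 bp after HORVU.MOREX.r3.6HG0608230 ends. It had 2.73, 1.48 and 1.44 TPM in *msnsd*, against 4.16, 1.90 and 0.86 TPM in E934, which overlapped (-0.08, SE 0.55, adjusted p = 0.967, exact two-sided permutation p = 0.8).

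**Figure D4:**
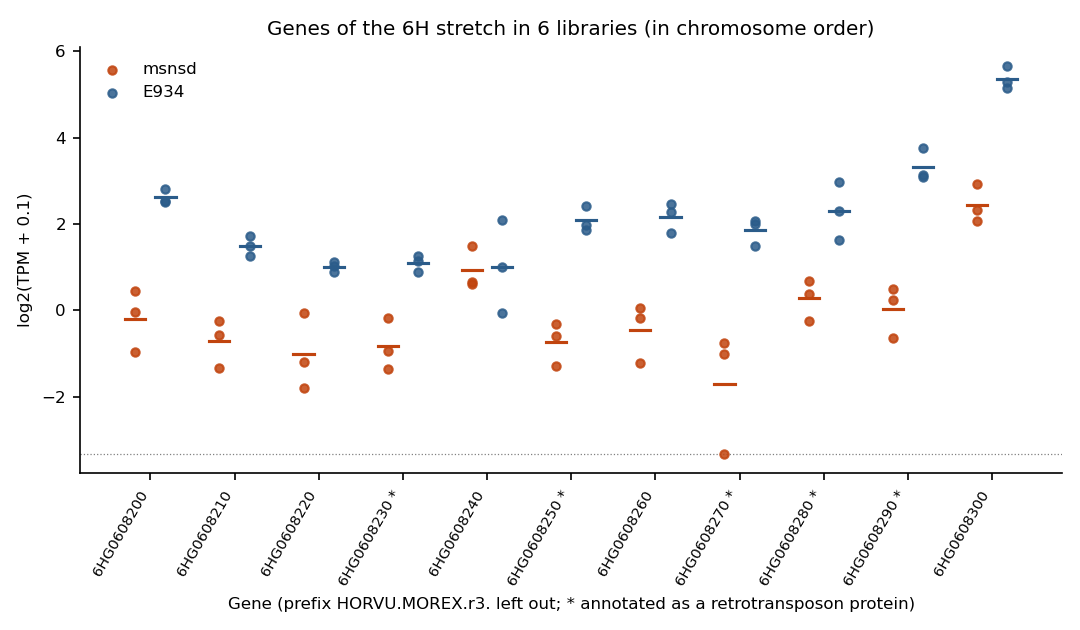
log2(TPM + 0.1) of the 11 genes of the 6H stretch in chromosome order, 1 point per library and a bar at each genotype's mean (n = 3), *msnsd* in orange left of E934 in blue; asterisks mark the 5 genes annotated as retrotransposon proteins and the dotted line is a TPM of 0. In 10 genes all E934 points lie above all *msnsd* points, and in HORVU.MOREX.r3.6HG0608240 they mix.

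The stretch was set off from its surroundings. Gaps between its gene models were 6 to 1122 bp, while the gap before it was 60701 bp and the gap after it 272549 bp. Of the 10 nearest genes outside, 5 on each side, 9 were tested and 0 were called, with log2 fold changes from -1.86 to 0.21 and a smallest adjusted p of 0.449. The gene before it, HORVU.MOREX.r3.6HG0608190, had 2.53, 1.27 and 1.94 TPM in *msnsd*, against 2.41, 3.46 and 1.59 TPM in E934. The gene after it, HORVU.MOREX.r3.6HG0608320, had 19.45, 19.58 and 21.01 TPM in *msnsd*, against 16.78, 17.68 and 17.42 TPM in E934 (log2 fold change 0.21). RefSeq, on the same assembly, has a single model that reaches into the stretch, the long noncoding RNA gene LOC123402794 (467395580 to 467400934), which overlaps its first 352 bp.

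The pattern of the stretch over the 6 libraries was nearest to that of 5 genes elsewhere, ranked by Pearson's r of log2 values over 6 libraries that fall in 2 genotypes, which is a description. The first, HORVU.MOREX.r3.7HG0719630, described as an SPX domain protein, had 0 TPM in *msnsd*, against 6.76, 20.38 and 6.76 TPM in E934 (r = 0.998). HORVU.MOREX.r3.7HG0732030, described as a RING/U-box protein, had 4.45, 4.70 and 4.50 TPM in *msnsd*, against 8.50, 10.38 and 9.76 TPM in E934 (r = 0.994). The other 3 were HORVU.MOREX.r3.1HG0015070 (r = 0.996), HORVU.MOREX.r3.7HG0685510 (r = 0.994) and HORVU.MOREX.r3.1HG0055030 (r = 0.994), and none of the 5 was annotated as a retrotransposon protein or lay on 6H.

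Neighbouring retrotransposon genes were also compared along the rest of the genome. Tested genes of this annotation that follow each other without another tested gene between them and at most 10000 bp apart formed 103 runs of at least 3 genes, 348 genes in all, the longest of 6. All genes of a run had a log2 fold change below 0 in 35 runs and above 0 in 4 runs. In 84 runs there was no gene whose genotypes failed to overlap. Every gene was higher without overlap in 0 runs and lower without overlap in 2 runs. One of these 2 was the end of the 6H stretch (467407454 to 467410062) and the other a run of 3 genes on 4H (254684326 to 254686668), chosen after its values were seen. The medians of the remaining runs lay between -1.80 and 1.04 on the log2 scale.

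In the 4H run, HORVU.MOREX.r3.4HG0366810, a reverse transcriptase-related gene of high confidence with the zinc-binding domain, had 0.20, 0 and 0 TPM in *msnsd*, against 1.50, 1.12 and 0.90 TPM in E934 (adjusted p = 0.125). HORVU.MOREX.r3.4HG0366820, of the LINE subclass, had 0 in every *msnsd* library, against 0.51, 0.48 and 1.76 TPM in E934 (adjusted p = 0.135). HORVU.MOREX.r3.4HG0366830, with a reverse transcriptase domain, had 0 in every *msnsd* library, against 1.07, 1.14 and 0.42 TPM in E934 (adjusted p = 0.101). A single *msnsd* library thus held any signal from the run. The next 2 genes along the chromosome were called: HORVU.MOREX.r3.4HG0366840, described as an E2F-DP-type transcription factor, had 0 in every *msnsd* library, against 2.56, 2.05 and 3.28 TPM in E934 (adjusted p = 0.0153), and HORVU.MOREX.r3.4HG0366860, described as a Tudor/PWWP/MBT domain protein, had 0, 0 and 0.11 TPM in *msnsd*, against 9.30, 14.26 and 7.47 TPM in E934 (adjusted p = 0.0124). On the other side, HORVU.MOREX.r3.4HG0366790 had 8.27, 8.37 and 7.77 TPM in *msnsd*, against 17.07, 18.90 and 14.71 TPM in E934 (log2 fold change -1.04, adjusted p = 0.0600), and HORVU.MOREX.r3.4HG0366780 had 5.30, 4.32 and 5.13 TPM in *msnsd*, against 4.68, 9.81 and 3.13 TPM in E934, which overlapped. Beyond it, HORVU.MOREX.r3.4HG0366770 had 0.02, 0 and 0.01 TPM in *msnsd*, against 0.84, 0.85 and 0.47 TPM in E934, without overlap (-2.86, SE 0.45, adjusted p = 0.0989), so that low genes lay on both sides of HORVU.MOREX.r3.4HG0366780. HORVU.MOREX.r3.4HG0366720, which lies farther out and is of high confidence, had 14.02, 12.57 and 11.84 TPM in *msnsd*, against 11.99, 14.67 and 12.39 TPM in E934 (-0.02, adjusted p = 0.963).

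**Figure D5:**
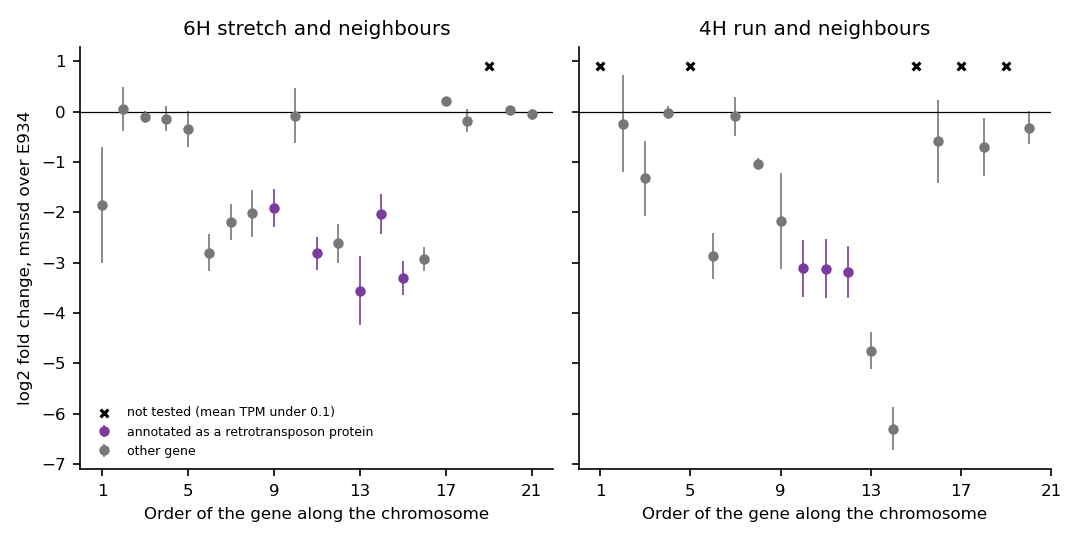
Log2 fold change, *msnsd* over E934, with its standard error (bars), of the genes of the 6H stretch and its neighbours (left) and of the 4H run and its neighbours (right), in chromosome order; for genes at 0 in *msnsd* the pseudocount of 0.1 sets the size. Genes annotated as retrotransposon proteins are purple, other genes grey, and crosses are genes under 0.1 TPM, drawn at a fixed height; on 6H the tested genes next to the stretch lie near 0, and on 4H the low genes include the 2 genes after the run.

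Near *HvTCP25*, 13 retrotransposon genes within 10 Mb were tested. Of these, 0 were called. At an unadjusted p under 0.05, 1 (7.69%) was higher and 2 (15.4%) were lower, against 5.57% higher and 5.09% lower over all genes tested. The median log2 fold change was -0.02, with a smallest adjusted p of 0.169.

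Genes for silencing of transposable elements were picked by words in their descriptions, such as argonaute or dicer, so some may have other roles. The list held 113 genes, 95 of them tested. Of these, 0 were called, and at an unadjusted p under 0.05, 0 were higher and 9 (9.47%) lower, against 5.57% higher and 5.09% lower over all genes tested. The median log2 fold change was -0.11, with 75 of 95 (78.9%) below 0, against 52.4% over all genes. Their *msnsd* libraries lay wholly below those of E934 for 15 genes (15.8%) and wholly above for 0, against 7.85% below and 8.73% above over all genes. RNA-dependent RNA polymerases, which make double-stranded RNA for small RNAs, gave 4 of the 9, out of 9 tested, with a median of -0.42. The one with the smallest p, HORVU.MOREX.r3.3HG0244530, had 4.57, 5.24 and 3.86 TPM in *msnsd*, against 11.50, 8.32 and 8.21 TPM in E934, without overlap (log2 fold change -1.01, SE 0.19, adjusted p = 0.136). HORVU.MOREX.r3.1HG0069800, a histone H3 lysine-9 methyltransferase gene, had 4.13, 5.46 and 4.97 TPM in *msnsd*, against 7.92, 7.46 and 8.39 TPM in E934 (-0.70, adjusted p = 0.174). HORVU.MOREX.r3.1HG0044790, of DICER-LIKE 3, which cuts double-stranded RNA to small RNAs, had 3.10, 2.80 and 2.65 TPM in *msnsd*, against 4.73, 5.07 and 4.10 TPM in E934 (-0.68, adjusted p = 0.237). These did not overlap but missed the adjusted threshold. HORVU.MOREX.r3.4HG0338270, of the chromatin remodeller DDM1, was abundant, with 298.17, 330.92 and 305.59 TPM in *msnsd*, against 343.66, 402.42 and 362.79 TPM in E934 (-0.24, adjusted p = 0.388). Of 26 argonaute genes, which load small RNAs, and 18 DNA cytosine methyltransferase genes, 0 had an unadjusted p under 0.05.

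The DNA transposon list, 1134 genes of which 687 were tested, held 0 called genes. Its largest family, CACTA, had a median log2 fold change of -0.24 over 312 genes. At an unadjusted p under 0.05, 6 of them (1.92%) were higher and 25 (8.01%) lower, against 5.57% higher and 5.09% lower over all genes tested. Mutator (108 genes), Pong (109) and hAT (106) had medians of -0.15, -0.17 and -0.18, and the 12 Mariner genes a median of 0.15.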

How the data were processed

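Salmon was run by the authors on reads aligned to Morex V3, and 1 TPM value for each gene in each library, given to the second decimal, was deposited. The trimming tool fastp is named in the submitters' processing notes. The same table holds the authors' mean normalized count, a score without a fixed range that was used only to show how few reads lie behind a gene, and the columns of their own DESeq2 comparison (fold changes, p-values, adjusted values), which were not used. Of columns with values of single libraries, 0 were left out. How Salmon estimates were brought into that comparison is not given in the sources used here.

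Genes of 0.1 TPM or more on average entered limma (version 3.58.1, R 4.3.3). The model was fitted by lmFit to log2(TPM + 0.1) with genotype as its only term, and variances were moderated by eBayes with a trend on the mean. P-values were adjusted by the Benjamini-Hochberg method over all genes tested. For single genes the exact permutation test (two-sided) has 20 assignments of the libraries and a smallest p of 0.1. Other steps used Python 3.11.15, pandas 2.3.3, numpy 2.4.6 and matplotlib 3.10.9. Groups follow the sample labels. Nothing says that the replicates come from separate plantings, so p-values measure the spread between these samples only. As TPM keeps no depth, no counting interval or detection floor is given.

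The members and lists were chosen with earlier results of these data known. Named genes are all genes of the 6H stretch, the 5 largest positive and 5 largest negative fold changes without overlap between genotypes, the 6 most abundant retrotransposon genes and the 5 genes most like the stretch; the text says where a gene was picked after its values were seen. Lists were taken from gene descriptions, with hAT, Tc1 and cyclin B read as whole words, because their letters also occur inside other names. Alternatives were pseudocounts of 1 and 0.01, a minimum mean of 1 TPM or none, median-of-ratios and quantile scaling, no trend, a replicate block, each library left out, no fold threshold, and other ways of choosing members. A minimum mean normalized count of 10 and leaving out the 2 genes matched by letters were added after seeing the data.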

Additional observations from a re-analysis of the deposited data

How the results depend on the processing

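The median log2 fold change of the retrotransposon genes stayed below 0 in all settings run, from -0.36 to -0.07. With single libraries left out, the summed TPM of these genes (also run with median-of-ratios scaling) and of the 6H stretch stayed lower in *msnsd*, with differences of -656 to -181 TPM and of -75.4 to -62.6 TPM. Against 16 genes called in all, 30 were called without the trend, 25 at a mean of at least 1 TPM, 0 with the replicate number as a block, and 0 to 22 with single libraries left out. Retrotransposon genes called numbered 5 without the trend and 1 after quantile normalization. At an unadjusted p under 0.05, retrotransposon genes numbered 30 higher and 103 lower (133), against 9 and 28 (37) at a mean of at least 1 TPM, 9 and 35 (44) by protein domain, 4 and 6 (10) in the high-confidence class, and 9 and 34 (43) at a mean normalized count of at least 10, which hold fewer genes; leaving out single libraries gave 20 to 39 higher, 72 to 176 lower and 107 to 196 in all. Of the 11 genes of the stretch 2 were called, against 0 without the trend, 1 without a filter, 1 with a pseudocount of 0.01, 4 with a pseudocount of 1, 3 at a mean of at least 1 TPM, 0 with the replicate block and 0 to 1 with single libraries left out. Fold changes that changed sign did so with single libraries left out: HORVU.MOREX.r3.6HG0608240 ran from -0.62 to 0.46, HORVU.MOREX.r3.4HG0331650 from -0.062 to 0.12, HORVU.MOREX.r3.7HG0726240 from -0.25 to 0.15 and HORVU.MOREX.r3.3HG0300200 from -0.0017 to 0.12. The cause of these moves was not tested. Same-numbered libraries of the genotypes had correlations of deviations of 0.02, -0.07 and 0.04. With 3 libraries a genotype, these values cannot tell whether same-numbered samples were collected or prepared together. Under the replicate block 24 retrotransposon genes were higher and 104 lower at an unadjusted p under 0.05, with a median of -0.20. With 3 libraries a genotype and no depth, differences in the many genes of few reads were not detectable unless large.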
